A study of Mus musculus with 18 samples.

Results

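Expression of 10 genes of the vascular and lymphatic endothelium was examined in whole mouse lungs at 14.5 dpc (days post coitus), after epithelial deletion of Rptor, Tfam or Cox10. The genes were Pecam1, Cdh5, Kdr, Flt1, Tek, Tie1, Gja5, Prox1, Lyve1 and Flt4. They were chosen by name, with no threshold on measured values, and all 10 were found among the 23416 gene symbols present in the tables of all 3 lines. Deficient lungs were Rptorf/f; ShhCre/+, Tfamf/f; ShhCre/+ or Cox10f/f; ShhCre/+, with 3 samples each. Their littermate controls were Rptorf/+; ShhCre/+, Tfamf/+; ShhCre/+ or Cox10f/+; ShhCre/+, again with 3 samples each, so that every control lung also carried Cre at the Shh locus and a floxed allele. Rptor encodes a scaffold protein of mTOR complex 1, Tfam a transcription and packaging factor of mitochondrial DNA, and Cox10 a heme-modifying enzyme required for cytochrome c oxidase. ShhCre is broadly active in the lung epithelium, so the endothelial cells of these lungs were not the cells targeted by the deletion. RNA came from the whole organ, in which fewer cells of a type and less RNA per cell cannot be told apart. The labels do not say whether a sample was a single embryo, and the p-values measure the spread between these samples.

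Endothelial cells line the blood and lymphatic vessels, and the vascular plexus of the lung grows in close contact with the branching airways. PECAM1 and CDH5 (VE-cadherin) are adhesion proteins of endothelial cell junctions. KDR (VEGFR2) is the main signalling receptor for VEGFA, and FLT1 (VEGFR1) binds VEGFA tightly and also exists as a soluble decoy. TEK (TIE2) is the receptor for angiopoietins, and TIE1 is a related receptor that modulates its signalling. GJA5 (connexin 40) forms gap junctions in arterial endothelium and in the atrial myocardium. PROX1 is the transcription factor that specifies lymphatic identity and is also present in the developing heart and other organs. LYVE1, a hyaluronan receptor, marks lymphatic endothelium and also a class of tissue macrophages. FLT4 (VEGFR3) is the receptor for VEGFC and VEGFD and is found on growing blood vessels as well as on lymphatic vessels.

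Coordinates of the genes are given on GRCm38 (mm10) from the GENCODE M21 annotation. Pecam1 lies at chr11:106654217-106750628 on the minus strand, Cdh5 at chr8:104101625-104144511 on the plus strand, and Kdr at chr5:75932827-75978458 on the minus strand. Flt1 is at chr5:147561604-147726011 on the minus strand, Tek at chr4:94739289-94874976 on the plus strand, and Tie1 at chr4:118471191-118490061 on the minus strand. Gja5 spans chr3:96904693-97077416 on the plus strand, Prox1 spans chr1:190118035-190170714 on the minus strand, and Lyve1 spans chr7:110850607-110863239 on the minus strand. Flt4 is at chr11:49609263-49652739 on the plus strand. Antisense genes overlap Cdh5, Prox1 and Gja5 on the opposite strand. Whether reads were counted by strand is not given in the sources used here, so reads of these overlapping genes cannot be told apart from those of Cdh5, Prox1 and Gja5.

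The sequence upstream of the start site was available from RefSeq (GRCm38.p6) for 7 of the 10 genes, all but Pecam1, Cdh5 and Lyve1. Those of Tek, Kdr and Flt1 are shown because they belong to the receptor genes for angiopoietins and VEGFA. Each is the stretch before the RefSeq start, 5′ to 3′ on the strand of the gene. The capitals mark GGAA, or TTCC where it lies on the other strand, the core bound by ETS transcription factors, a family with several members active in endothelium. Tek is taken from chr4:94739039-94739288 (plus strand, 250 bases), Kdr from chr5:75978459-75978705 (minus strand, 247 bases) and Flt1 from chr5:147726012-147726261 (minus strand, 250 bases).
Tek: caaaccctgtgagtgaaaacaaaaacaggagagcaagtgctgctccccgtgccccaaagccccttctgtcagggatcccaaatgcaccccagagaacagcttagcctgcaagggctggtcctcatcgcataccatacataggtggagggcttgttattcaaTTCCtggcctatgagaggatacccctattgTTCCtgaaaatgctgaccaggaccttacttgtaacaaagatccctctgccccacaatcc
Kdr: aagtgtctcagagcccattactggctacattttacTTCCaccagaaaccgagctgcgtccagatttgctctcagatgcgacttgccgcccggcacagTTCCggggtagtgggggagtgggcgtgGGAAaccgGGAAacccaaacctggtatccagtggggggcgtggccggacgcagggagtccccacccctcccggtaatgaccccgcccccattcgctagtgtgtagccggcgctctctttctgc
Flt1: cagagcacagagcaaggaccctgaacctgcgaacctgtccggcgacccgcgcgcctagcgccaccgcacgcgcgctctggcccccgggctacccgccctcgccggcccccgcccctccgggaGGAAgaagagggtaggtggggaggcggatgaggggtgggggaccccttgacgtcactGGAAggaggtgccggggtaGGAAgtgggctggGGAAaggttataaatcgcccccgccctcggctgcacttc
The core was found 2 times in the Tek sequence, 4 times in that of Kdr and 4 times in that of Flt1. A median of 3 was found over the 250 bases upstream of 32851 annotated starts, and 93.4% of these windows held at least 1. The windows with at least as many were 76.8% for 2 and 33.4% for 4.

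Normalised read counts, meaning reads per gene scaled by size factors, summed to between 27725270 and 29608845 per sample. Transcripts of the targeted genes, counted over the whole gene, did not pass the test in whole lungs (limma adjusted p = 0.57 for Rptor, 0.472 for Tfam and 0.979 for Cox10). Epithelial markers (Epcam, Cdh1, Nkx2-1, Cldn6, Krt8 and Krt18) summed to 26827 to 27819 in Rptor control lungs and 10524 to 13939 in Rptor-deficient lungs. For the Tfam line these ranges were 24873 to 26237 and 19993 to 22533, and for the Cox10 line 20107 to 20502 and 13659 to 18370. Values of a gene are shares of the RNA of a sample, and the part of the lower epithelial share in the results was not tested. Cox10-deficient replicate 3 stood apart from the other Cox10-deficient lungs in endothelial genes, and values without it are given beside the results of the Cox10 line. It was also apart in other lists, with epithelial markers summing to 18370 against 13659 and 14956 in deficient replicates 1 and 2, and the pericyte gene Abcc9 at 1004 against 322 and 289.

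Per kilobase of annotated exon, Cdh5 had the highest level of the 10 genes in the control lungs of every line and Prox1 the lowest. In the Rptor controls the level of Cdh5 was 2158 ± 88.7 normalised reads per kilobase (SD, n = 3). Pecam1 (1083 ± 48.3) and Tie1 (1044 ± 37.8) followed and lay within their spread of each other. Lyve1 (769 ± 89.8) and Kdr (685 ± 36.3) were also within their spread, and Tek stood at 609 ± 10.4. Flt4 (215 ± 8.87), Gja5 (136 ± 13.7) and Flt1 (81.8 ± 8.14) were lower, and Prox1 was at 16.6 ± 3.00. Flt4, Gja5, Flt1 and Prox1 took the last 4 places in this order in the controls of all 3 lines. The annotation behind the counts is not stated, so these lengths are approximate. Levels are not compared between lines, whose tables were scaled separately.

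In Rptor-deficient lungs 7 of the 10 genes rose, by 1.26- to 1.49-fold: Tie1, Flt4, Tek, Cdh5, Pecam1, Kdr and Prox1. The remaining genes, Lyve1, Gja5 and Flt1, did not pass the test. Over all 14937 genes tested in this line, 16.6% were higher at an adjusted p below 0.05 (limma, Benjamini-Hochberg) and 34.8% changed in either direction. The median log2 fold change of the 10 genes was 0.34, against 0.0082 for all genes tested, and all 10 values were above 0, as were 51% of those of all genes. Control and deficient values did not overlap for the 7 genes that rose, and 24.3% of all genes tested were higher without overlap. Macrophage markers moved in the same lungs: all 6 tested (Csf1r, Mrc1, Cx3cr1, C1qa, C1qb and C1qc) rose, and their list summed to 3953 to 4336 in controls and 6405 to 7725 in deficient lungs, with Timd4 below 10 in every sample. Mesothelial markers rose in 3 of 4 cases (Lrrn4 1.12, Wt1 1.08 and Upk3b 0.70 on the log2 scale, adjusted p at most 0.00252), while Msln, with lower values in all deficient lungs, did not pass the test (-0.93, 0.0856), and their list summed to 3381 to 4760 in controls and 6728 to 7515 in deficient lungs. The part of these markers in the results was not tested. No cardiomyocyte marker of the 7 tested passed the test.

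**Figure D1:**
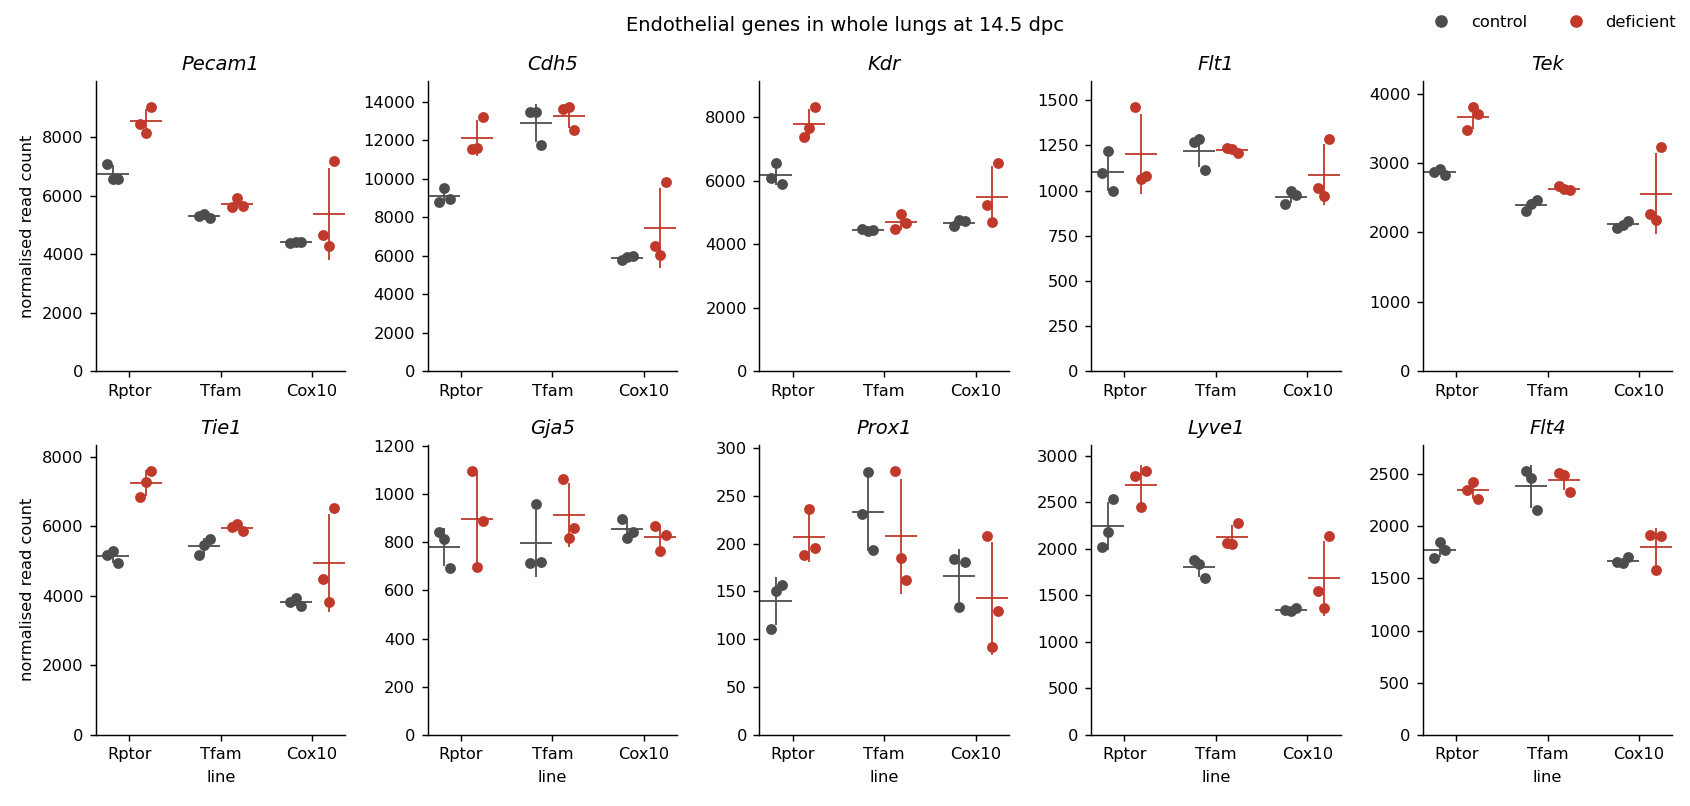
Normalised read counts (vertical axes, each from 0) of the 10 genes in whole lungs of the Rptor, Tfam and Cox10 lines (horizontal axes). Each point is a sample, horizontal bars are means and vertical bars SD (n = 3). In the Rptor line the deficient samples lie above all controls for Pecam1, Cdh5, Kdr, Tek, Tie1, Prox1 and Flt4, and in the Cox10 line deficient replicate 3 (the rightmost point) lies high for Pecam1 (7176), Cdh5 (9841) and Tie1 (6514).

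Of the junction proteins, Cdh5 had normalised counts of 8766, 9486 and 8960 in the Rptor controls and 11560, 11578 and 13198 in the Rptor-deficient lungs. This was a rise of 0.42 on the log2 scale (SE 0.066, limma adjusted p = 0.00215). Pecam1 was at 7092, 6579 and 6563 in controls and 8445, 8155 and 9014 in deficient lungs. The lowest deficient value of either gene was above its highest control value. Pecam1 rose by 0.34 on the log2 scale (SE 0.058, limma adjusted p = 0.00303).

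Among the receptors, Tie1 had the smallest adjusted p of the 10 genes. Its counts were 5175, 5297 and 4932 in controls and 6838, 7278 and 7587 in deficient lungs, a 1.41-fold rise (log2 0.49, SE 0.057, limma adjusted p = 0.000543). Tek, which encodes the angiopoietin receptor, had 2866, 2920 and 2823 in controls and 3469, 3801 and 3708 in deficient lungs (log2 0.35, SE 0.054, limma adjusted p = 0.00196). The lowest deficient value of Tek was above its highest control value. Kdr had 6089, 6545 and 5908 in controls and 7393, 7668 and 8311 in deficient lungs (log2 0.33, SE 0.063, limma adjusted p = 0.00476). The second VEGFA receptor gene, Flt1, had 1096, 1219 and 1000 in controls and 1460, 1066 and 1081 in deficient lungs. Only Rptor-deficient replicate 1 lay above the controls, and the groups overlapped (log2 0.11, SE 0.13, limma adjusted p = 0.536). Without that replicate the log2 fold change of Flt1 was -0.037.

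Gja5, the arterial connexin gene, was also variable among the deficient lungs. It was at 841, 813 and 692 in controls and 1096, 698 and 890 in deficient lungs, and the groups overlapped (log2 0.18, SE 0.15, limma adjusted p = 0.409). For Gja5 and Flt1 replicate 1 was the highest of the deficient lungs. This lung was also apart in other genes. Adm was at 240 in it against 46.5 and 49.4 in deficient replicates 2 and 3. Lower in it were Aplnr (6887 against 11354 and 12607) and Klf2 (137 against 358 and 456).

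Of the lymphatic genes, Flt4 had 1699, 1845 and 1775 in controls and 2351, 2425 and 2262 in deficient lungs, with a 1.32-fold rise (log2 0.40, SE 0.058, limma adjusted p = 0.0014). Prox1 had low counts, of 111, 151 and 157 in controls and 188, 237 and 196 in deficient lungs. Its rise was the largest of the 10 in size and the least certain of those called (log2 0.57, SE 0.17, limma adjusted p = 0.0297). The call of Prox1 was lost without control replicate 1 (adjusted p = 0.085), control replicate 2 (0.0561), deficient replicate 2 (0.0974) or deficient replicate 3 (0.0533), and with all 18 samples in a single fit (0.0785). The other 6 genes that rose kept their calls without any single sample. Lyve1 had 2020, 2183 and 2533 in controls and 2783, 2447 and 2838 in deficient lungs. Deficient replicate 2 lay below control replicate 3, and Lyve1 missed the threshold (log2 0.26, SE 0.093, limma adjusted p = 0.0566). Lyve1 passed it with the replicate number as a block (adjusted p = 0.0249), with library totals as the scaling (0.0419), with the cardiomyocyte list as a covariate (0.047), and without control replicate 3 (0.0229) or deficient replicate 2 (0.0411).

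As a reference within each lung, 9 further pan-endothelial genes that are not among the 10 were used (Esam, Robo4, Mmrn2, Erg, Egfl7, Icam2, Emcn, Ecscr and Sox7). In the Rptor line 7 of the 9 rose, with a median log2 fold change of 0.28. Their summed counts were 13349 to 13755 in control and 15425 to 17454 in deficient lungs. After the mean log2 value of these genes was subtracted from each sample, 1 of the 10 genes remained higher, where 5.32% of all genes were higher and 55.1% differed in either direction. This was Tie1, at 1.946, 1.959 and 1.926 log2 units above the reference in controls and 2.119, 2.163 and 2.131 in deficient lungs. The difference was 0.19 (SE 0.060, limma adjusted p = 0.02). The values of the 2 groups did not overlap, but the call was lost with the replicate number as a block (adjusted p = 0.0628) and without control replicate 1, control replicate 3 or deficient replicate 2. Without deficient replicate 1, Flt1 and Gja5 were lower relative to the reference (log2 -0.37 and -0.31, adjusted p = 0.00385 and 0.0246) and 3 of the 10 genes were called, where 60.8% of all genes were. The remaining genes lay between -0.19 and 0.27 with all samples.

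In Tfam-deficient lungs none of the 10 genes passed the test, where 4.66% of 15050 genes did. At an unadjusted p below 0.05 there were 3 genes (Tek, Tie1 and Lyve1), and 17.4% of all genes tested. The median log2 fold change of the 10 genes was 0.093, against 0.00095 for all genes tested, and 9 of the 10 values were above 0, as were 50.3% of those of all genes. Lyve1 came closest, with 1880, 1843 and 1685 in controls and 2062, 2049 and 2281 in deficient lungs (log2 0.24, SE 0.067, limma adjusted p = 0.0757). The macrophage list summed to 5078 to 5734 in controls and 5900 to 6362 in deficient lungs of this line. None of its 7 genes tested passed the test, and the part of macrophages in the Lyve1 values was not tested. Tie1 had 5159, 5472 and 5640 in controls and 5965, 6053 and 5870 in deficient lungs (log2 0.14, SE 0.056, limma adjusted p = 0.225). Values of Pecam1, Tek, Tie1 and Lyve1 were higher without overlap, which held for 10.9% of all genes tested. Cdh5, Kdr, Flt1, Gja5 and Flt4 overlapped between the groups, with log2 fold changes of 0.0041 to 0.20. Prox1 had 231, 275 and 193 in controls and 276, 185 and 162 in deficient lungs, and its log2 fold change was -0.19 (SE 0.19). Relative to the 9 reference genes, none of the 10 passed the test, where 9.71% of all genes did, and none had an unadjusted p below 0.05, where 27.9% of all genes did.

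The Cox10 line gave no call among the 10 genes either, where 0.475% of 14934 genes passed the test, and no gene of the 10 reached an unadjusted p below 0.05, which 13% of all genes did. Their median log2 fold change was 0.23 and fell to 0.064 without deficient replicate 3. Of the 10 values 8 were above 0, as were 50.4% of those of all genes. Cdh5, Tek and Lyve1 were higher without overlap, which held for 10.6% of all genes tested. Deficient replicate 3 had a Pecam1 count of 7176, while deficient replicates 1 and 2 had 4668 and 4285 and the controls had 4366, 4428 and 4423. For Cdh5 it had 9841, against 6478 and 6019 in the other deficient lungs and 5770, 5914 and 6002 in controls. In that lung the vascular genes were 1.29-fold (Flt1) to 1.60-fold (Pecam1) above the mean of deficient replicates 1 and 2, and Lyve1 was 1.47-fold above it. The median of the 9 reference genes was 1.42-fold above it. For Tie1, at 1.58-fold, 5.26% of all genes tested had a larger ratio. Gja5 (1.02-fold), Prox1 (0.94-fold) and Flt4 (1.1-fold) did not share this difference. Prox1 had 184, 134 and 181 in controls and 208, 91.5 and 130 in deficient lungs (log2 -0.28, SE 0.28, limma adjusted p = 0.675).

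Without deficient replicate 3, the 2 remaining Cox10-deficient lungs again gave no call among the 10 genes, where 1.72% of all genes passed the test. The log2 fold changes of the 6 vascular genes from Pecam1 to Tie1 then lay between 0.022 and 0.11. Relative to the reference genes none of the 10 passed the test in all 6 Cox10 samples, where 0.971% of all genes did. Prox1 had the only unadjusted p below 0.05 (0.0373) of the 10, where 7.91% of all genes had one. Its difference was -0.55 (SE 0.26, limma adjusted p = 0.511), with SDs of 0.28 in controls and 0.65 in deficient lungs. Leaving out deficient replicate 1 gave a call (-0.92, adjusted p = 0.0483), the only 1 in 6 such fits. Leaving out deficient replicate 3 gave -0.32. The reference level of that lung was 10.51 (mean log2), against 9.99 and 9.849 in replicates 1 and 2. SEs in this comparison were 0.21 to 0.26 for all 10 genes, also for Cdh5 with SDs of 0.031 and 0.041. They did not follow the spread of single genes, which limits what these p-values show.

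**Figure D2:**
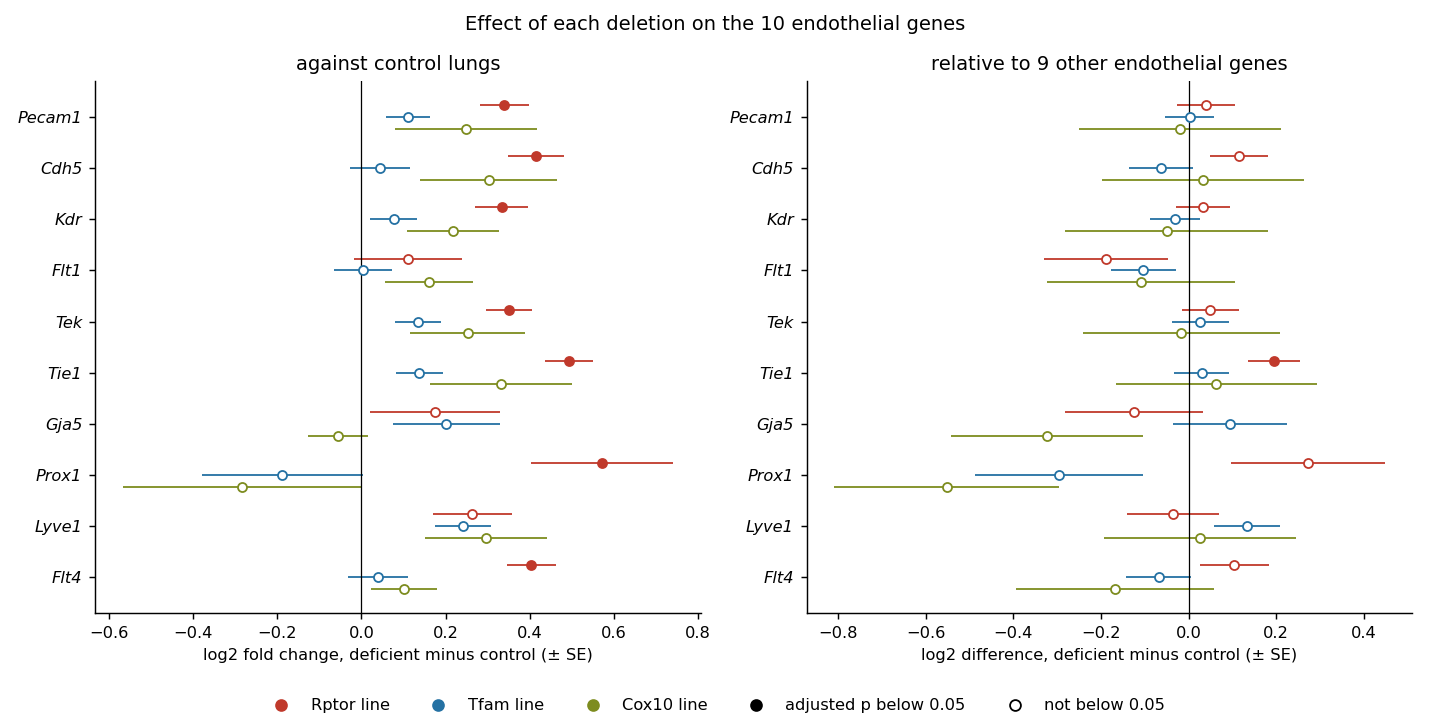
Deficient minus control differences (horizontal axes, log2 scale, bars ± SE) of the 10 genes in the 3 lines. The left panel shows log2 fold changes and the right panel the differences relative to 9 other endothelial genes, and filled points had an adjusted p below 0.05. The 7 filled points of the Rptor line lie between 0.33 (Kdr) and 0.57 (Prox1) on the left, and on the right Tie1 (0.19) is the only filled point.

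The effects of the deletions were then compared between lines, as the difference of the log2 fold changes in a fit of all 18 samples and 14548 genes. The Rptor effect on Flt4 exceeded the Tfam effect by 0.36 (SE 0.10, limma adjusted p = 0.0307). This was 1 of the 10 genes, where 11.2% of all genes differed between these lines. Flt4 counts in the Tfam line were 2529, 2464 and 2151 in controls and 2506, 2488 and 2331 in deficient lungs, with overlap, in contrast to the separate groups of the Rptor line. The Flt4 difference passed the threshold in 10 of 18 leave-one-out fits, with adjusted p from 0.00817 to 0.0818. Tie1 (0.36) and Cdh5 (0.37) had differences of like size with larger standard errors of 0.17 (adjusted p = 0.181 and 0.174). Without Cox10-deficient replicate 3, a sample of neither line, their differences were unchanged and their standard errors were 0.083 and 0.092. In a fit of the 12 samples of the Rptor and Tfam lines alone, Tie1, Cdh5 and Flt4 differed (adjusted p = 0.00983, 0.0292 and 0.0228), where 12% of 14698 genes did.

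Between the Rptor and Cox10 effects no gene of the 10 differed, where 7.49% of all genes did. With the replicate number as a block Flt4 differed (0.30, SE 0.082, limma adjusted p = 0.0381). Without the block an unadjusted p below 0.05 was found for 2 of the 10 genes (Prox1 and Flt4) and for 23% of all genes. Both comparisons depended on Cox10-deficient replicate 3. Without it, the Rptor and Tfam effects differed for 6 genes (Pecam1, Cdh5, Kdr, Tek, Tie1 and Flt4), where 16.5% of all genes did. The Rptor and Cox10 effects then differed for 5 (Pecam1, Cdh5, Tek, Tie1 and Flt4), where 12.5% of all genes did. The difference for Tie1 between the Rptor and Cox10 effects was 0.16 (SE 0.17) with this sample and 0.38 (SE 0.088, adjusted p = 0.00953) without it. The Tfam and Cox10 effects did not differ for any of the 10 genes at either an adjusted or an unadjusted p below 0.05, where 0.055% and 4.56% of all genes differed, and standard errors of 0.10 to 0.36 bound what could be seen.

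Ligands and co-receptors of the same pathways were examined next. In the Rptor line, where 16.6% of all genes rose and 34.8% changed in either direction, 5 of the 9 VEGF-related genes tested rose and 1 fell, with a median log2 fold change of 0.54. Figf, the symbol in these tables for Vegfd, whose product binds FLT4, had 1418, 1408 and 1471 in controls and 2778, 2531 and 2748 in deficient lungs. It rose by 0.91 on the log2 scale (SE 0.059, limma adjusted p = 4.28e-05). The other FLT4 ligand gene, Vegfc, had 423, 481 and 462 in controls and 681, 703 and 608 in deficient lungs (log2 0.54, adjusted p = 0.00275). Both ligand genes were thus separate between groups. Ccbe1, whose product is needed for processing of VEGFC, rose by 0.87 (adjusted p = 0.00441), and Adamts3, the protease of that step, was at 0.35 (adjusted p = 0.125). Nrp2, a co-receptor for VEGFC, rose by 0.77 (adjusted p = 0.00246). Pgf, a ligand of FLT1, had 262, 228 and 260 in controls and 510, 324 and 318 in deficient lungs and rose by 0.58 (adjusted p = 0.0353). Rptor-deficient replicate 1 was the highest lung for Pgf, Vegfa, Nrp2 and Ccbe1. Without it the log2 fold changes were 0.36 for Pgf (adjusted p = 0.0337), 0.61 for Nrp2 (0.000603), 0.67 for Ccbe1 (0.00137) and 0.15 for Vegfa (0.0767), and the calls in this list were unchanged. Nrp1, a co-receptor for VEGFA, was the gene that fell, by 0.23 on the log2 scale, with 5312, 5785 and 5198 in controls and 4552, 4672 and 4699 in deficient lungs (adjusted p = 0.0149). Vegfa had 4711, 4477 and 4251 in controls and 8110, 5112 and 4842 in deficient lungs, above the controls in all deficient samples and highest in replicate 1, and missed the threshold (log2 0.39, SE 0.17, adjusted p = 0.109). Vegfb did not pass the test (log2 0.19, adjusted p = 0.18).

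The ligands of TEK rose as well. Angpt1, which activates the receptor, had 1292, 1411 and 1494 in controls and 2310, 2160 and 2342 in deficient lungs (log2 0.70, SE 0.070, limma adjusted p = 0.000286). Angpt2, a context-dependent antagonist made by endothelial cells, had 166, 190 and 206 in controls and 315, 321 and 303 in deficient lungs (log2 0.75, SE 0.12, adjusted p = 0.00192). Every deficient value of either gene was above the controls. Ptprb, which encodes the phosphatase VE-PTP that acts on TEK, rose by 0.64 (adjusted p = 0.000253). Svep1, an extracellular protein linked to the TIE receptors, did not pass the test (log2 0.18, adjusted p = 0.337), and Angpt4 was below 10 in all Rptor samples and not tested.

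None of these 13 tested ligand, co-receptor and regulator genes passed the test in the Tfam or the Cox10 line, nor in the Cox10 line without deficient replicate 3. In the Cox10 line Figf had 561, 544 and 493 in controls and 632, 551 and 1579 in deficient lungs, with the high value in deficient replicate 3. The Rptor effect exceeded the Tfam effect for Angpt1 (0.52, adjusted p = 0.00177), Angpt2 (0.69, 0.0391), Nrp2 (0.74, 0.00981), Ccbe1 (0.65, 0.0376) and Pgf (0.69, 0.048), and was lower for Nrp1 (-0.32, 0.025). It exceeded the Cox10 effect for Angpt1 (0.65, adjusted p = 0.000359), Angpt2 (0.70, 0.0449), Nrp2 (0.60, 0.0343) and Ccbe1 (0.69, 0.036). Without Cox10-deficient replicate 3 it did so for Angpt1, Angpt2, Nrp2, Figf (0.76, 0.000455), Ptprb (0.58, 0.000434) and Vegfc (0.49, 0.0422), and Ccbe1 missed the threshold (0.62, 0.0522). With that sample the difference for Figf was 0.28 (adjusted p = 0.667).

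**Figure D3:**
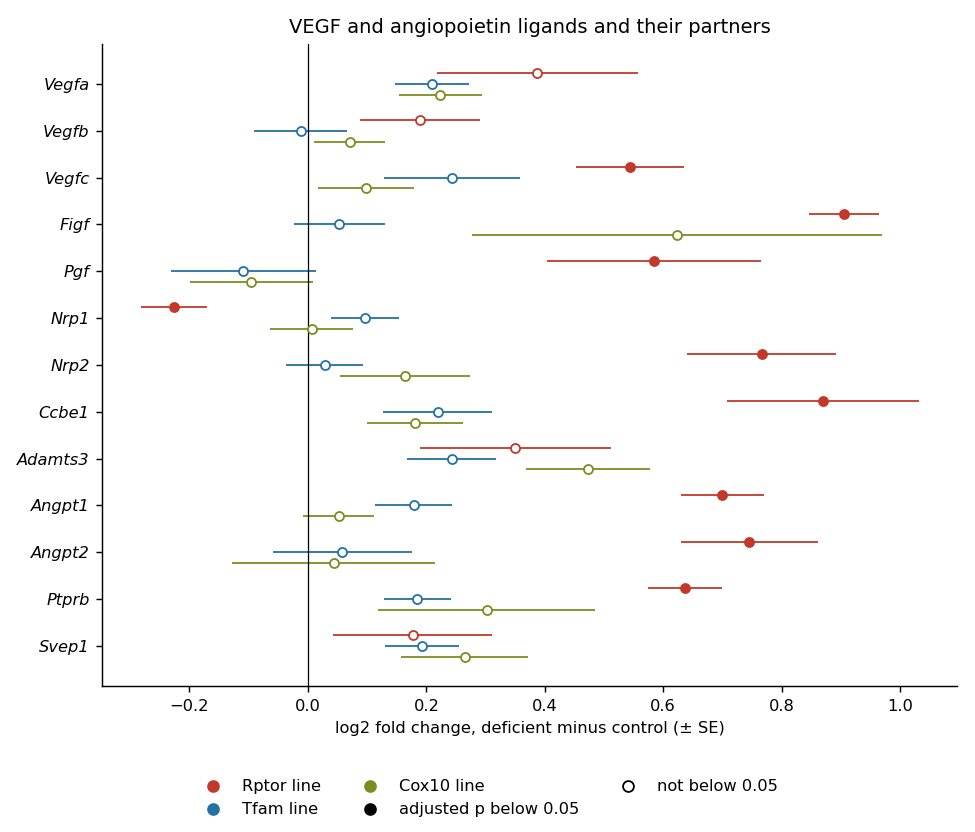
Log2 fold changes of VEGF and angiopoietin ligands and their partners, deficient minus control (horizontal axis, bars ± SE), in the 3 lines. Filled points had an adjusted p below 0.05. All filled points belong to the Rptor line, where Figf was at 0.91 and Nrp1, the gene that fell, at -0.23.

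Other endothelial lists of the Rptor line are given beside the 16.6% of all genes that rose. Of 10 further signalling genes, 4 rose: Calcrl, a receptor for adrenomedullin (log2 0.70, adjusted p = 0.0014), Acvrl1, a BMP receptor (0.51, 0.00103), Apln (0.48, 0.00894) and S1pr1 (0.40, 0.00399). Arterial genes rose in 4 of 11 cases, among them Sox17 (0.55, adjusted p = 0.00575), Unc5b (0.41, 0.000975) and the Notch ligand gene Dll4 (0.35, 0.0217). Like Gja5, the connexin gene Gja4 did not pass the test (0.12, 0.517). The venous genes Nr2f2 (0.25, adjusted p = 0.00976) and Ephb4 (0.19, 0.018) rose, 2 of 3 tested. Of 4 capillary genes tested, Gpihbp1 (0.91, 0.00572) and Ednrb (0.42, 0.000541) rose. Lymphatic genes beyond Prox1, Lyve1 and Flt4 rose in 1 of 7 cases. This was Reln, with 149, 200 and 191 in controls and 386, 526 and 352 in deficient lungs (1.21, 0.00141), while Pdpn was lower without overlap and did not pass the test (log2 -0.32, adjusted p = 0.0769) and Ccl21a was listed at 0 in every sample of the 3 lines. Fli1 (0.32, 0.00515) and Mef2c (0.39, 0.00319) were the 2 of 8 endothelial transcription factor genes that rose.

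Genes of the cells around the vessels rose too in the Rptor line. Of 8 genes of mural cells, the pericytes and smooth muscle of vessel walls, 6 rose. Rgs5, a pericyte gene, had 360, 353 and 320 in controls and 942, 1331 and 1064 in deficient lungs (log2 1.68, adjusted p = 7.93e-05). Kcnj8 (0.87, 0.000845) and Abcc9 (0.82, 0.00654), the subunits of the pericyte potassium channel, rose too. Mesenchymal genes rose in 3 of 6 cases (Col1a1 1.14, Tcf21 0.77 and Pdgfra 0.69, adjusted p at most 0.000247). The largest of these, Col1a1, had 46440, 44657 and 58069 in controls and 119381, 108703 and 99982 in deficient lungs, while Tbx4 (-0.037) and Wnt2 (-0.18) did not pass the test. All 6 epithelial genes fell, with a median of -1.16.

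Calcrl was higher in every line. Tfam control lungs had 1221, 1138 and 1171 and Tfam-deficient lungs 1610, 1411 and 1701 (log2 0.42, SE 0.076, limma adjusted p = 0.00996). Cox10 control lungs had 804, 865 and 799 and Cox10-deficient lungs 1303, 1220 and 1636 (log2 0.74, SE 0.11, adjusted p = 0.0365). It was the only gene of the endothelial lists called in all 6 samples of the Cox10 line. Without deficient replicate 3 it was called again (0.62, adjusted p = 0.00436), and the lymphatic list gene Itga9 was then called lower (-0.26, 0.0493). Unc5b also rose in the Tfam line (0.43, adjusted p = 0.0102), as did Kcnj8 (0.36, 0.0439), and the integrin gene Itga9 fell by 0.27 on the log2 scale (adjusted p = 0.0459).

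**Figure D4:**
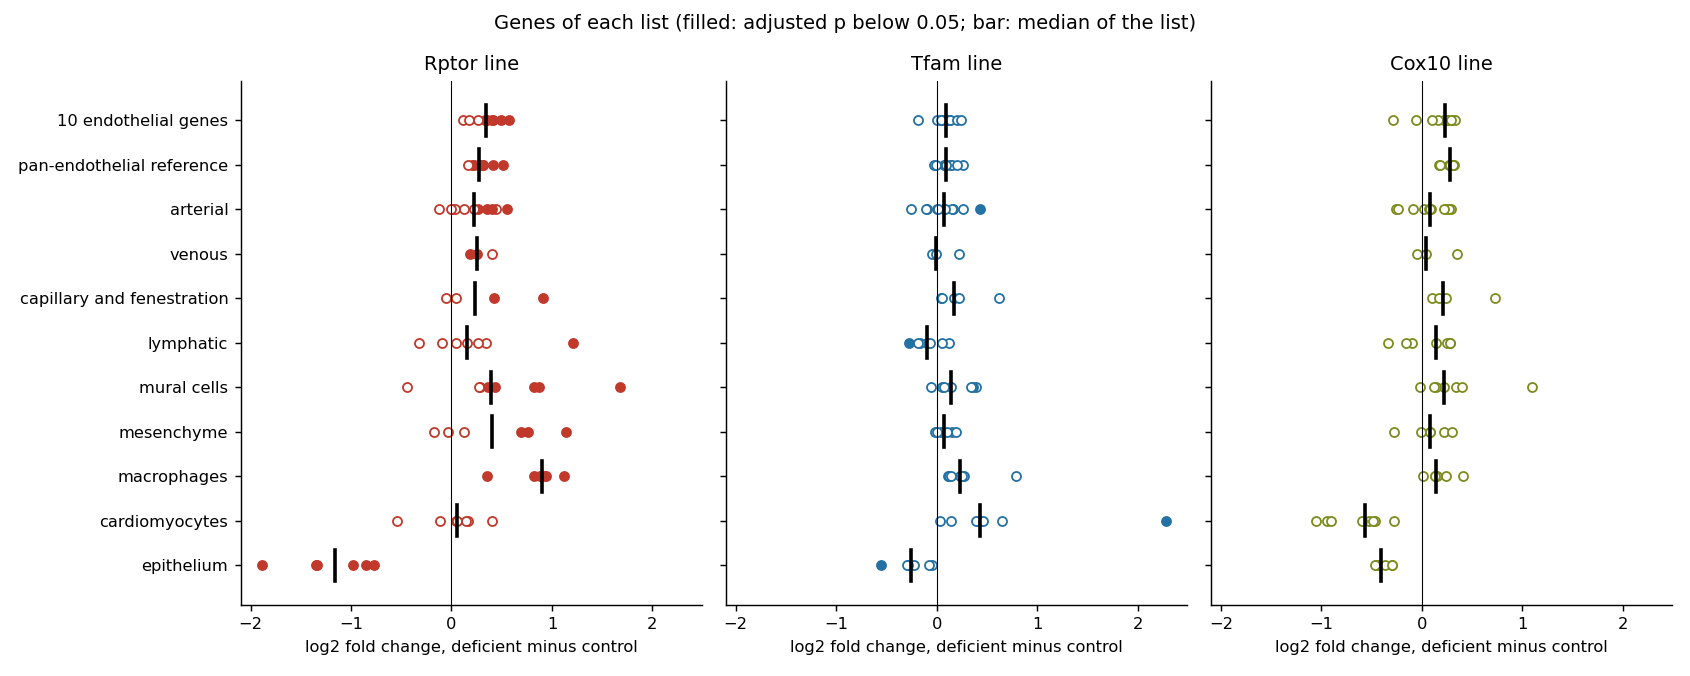
Log2 fold changes of single genes (points, filled where the adjusted p was below 0.05) in each gene list, deficient minus control (horizontal axes), with the median of the list as a vertical bar, for the Rptor, Tfam and Cox10 lines. In the Rptor line the median of the 10 endothelial genes is 0.34, that of macrophage genes 0.90 and that of epithelial genes -1.16, and in the Tfam line it is 0.093 for the 10 genes.

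Prox1 varied with cardiomyocyte markers between samples. The list (Myl7, Myh6, Nppa, Tnnt2, Actc1, Myl4, Tnni3 and Ryr2) summed to between 1330 and 29623 across the 18 lungs, and its ranges were 1733 to 4950 in Rptor control and 1696 to 2973 in Rptor-deficient lungs. Of the list only Nppa was called, in the Tfam line, as 1 of 8 genes tested, where 4.66% of all genes passed. It had 78.2, 179 and 136 in Tfam controls and 669, 607 and 557 in Tfam-deficient lungs (log2 2.29, limma adjusted p = 0.000273). In a fit of all 18 samples with the 6 groups as terms, Prox1 had a slope of 0.26 log2 units per log2 unit of the mean of the list (SE 0.056, limma adjusted p = 0.0266), where 0.983% of all genes passed the test. The other 9 genes had slopes of -0.044 to 0.041 and did not pass it. Within the Rptor, Tfam and Cox10 lines the slope of Prox1 was 0.19, 0.37 and 0.26, none of them past the threshold alone. Other lists varied in some of the same samples. Neuronal markers summed to 862, 325 and 297 in Cox10-deficient replicates 1 to 3, and mesothelial markers to 4652, 6373 and 4846 in Tfam controls and 7503, 5380 and 6114 in Tfam-deficient lungs. Whether the slope of Prox1 was particular to the cardiomyocyte list was not tested. Gja5 had a slope of 0.29 in the Tfam line (SE 0.073, adjusted p = 0.159). Without Cox10-deficient replicate 3 the slope of Prox1 over the other 17 samples was 0.28 (SE 0.057, adjusted p = 0.0151). Without Tfam-deficient replicate 1 and Cox10 control replicate 2, the samples farthest in the level of the list, it was 0.28 (SE 0.071) and missed the threshold (adjusted p = 0.202). With the list as a covariate the log2 fold change of Prox1 in the Rptor line was 0.61 (SE 0.16, adjusted p = 0.0278).

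**Figure D5:**
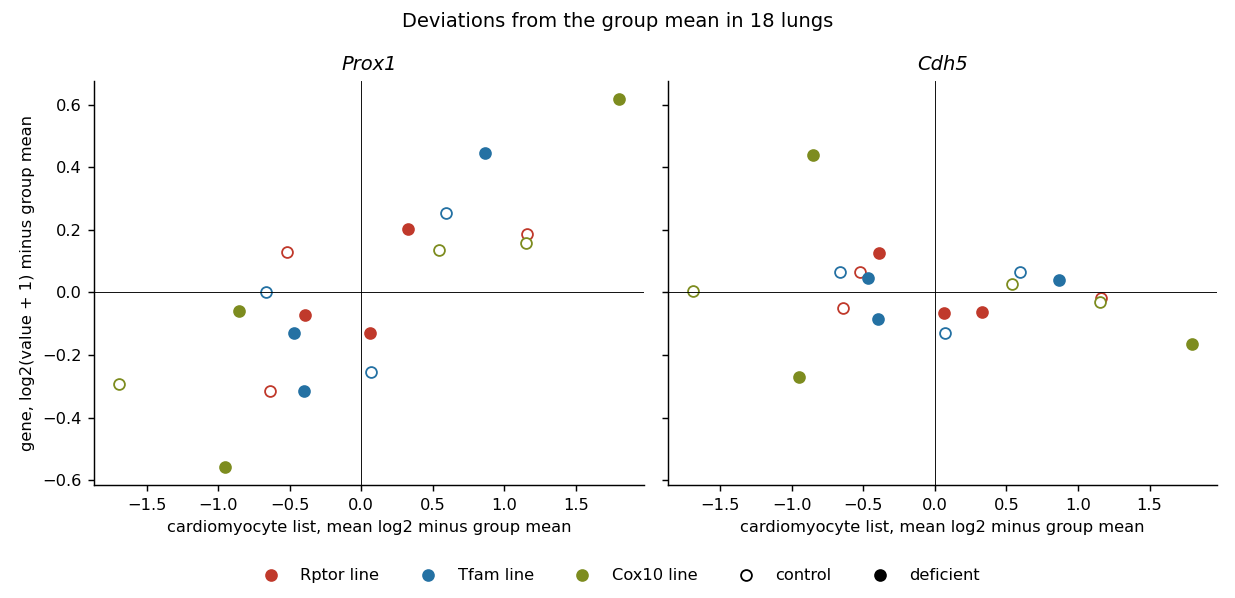
Deviation of Prox1 (left) and Cdh5 (right) from the group mean, as log2(value + 1) on the vertical axes, against the deviation of the mean log2 value of the cardiomyocyte list on the horizontal axes. Each point is 1 of 18 lungs, open for control and filled for deficient. Prox1 is highest (0.62) in the lung with the highest deviation of the list (1.80), Cox10-deficient replicate 1, and the high Cdh5 point (0.44) is Cox10-deficient replicate 3.

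After the mean of each group was removed over 18 samples, Pecam1, Cdh5, Kdr, Tek and Tie1 correlated with each other. Their Pearson r was 0.86 to 0.95, and 0.67 to 0.88 with Cox10-deficient replicate 3 dropped after the means were removed. Flt1 correlated with these genes at 0.41 to 0.56, and at 0.0697 to 0.35 without that sample. The median over all 15 pairs of the 6 vascular genes was 0.87, and 0.72 without it. Lyve1 correlated with Pecam1, Cdh5, Kdr, Tek and Tie1 at 0.68 to 0.80 (0.34 to 0.60 without that sample). Gja5 correlated with Flt1 at 0.57 (0.63) and Prox1 with Flt4 at 0.74 (0.78), while the other pairs of Gja5 or Prox1 with the 6 vascular genes lay between -0.058 and 0.16 (-0.12 and 0.29). The genes whose profile was most like the mean of the 6 vascular genes, among 12574 genes over 18 samples centred on their line, were Acvrl1 (r = 0.98), Opcml (0.98), Figf (0.97), Thsd1 (0.97) and Ptrf (0.97). Without Cox10-deficient replicate 3 these r were 0.93 to 0.97. For the mean of Prox1, Lyve1 and Flt4 they were Rab11fip5 (0.91), Loxl1 (0.90), Mfap2 (0.89), Ece1 (0.89) and Lrrc32 (0.89). For Gja5 the values were lower: Pcbp3 (0.83), Top1mt (0.77), Agap1 (0.77), Map3k6 (0.76) and Edn1 (0.75). The correlations of these profiles, centred on the line and not on the group, contain the differences between deficient and control lungs. For all r given without Cox10-deficient replicate 3, the means removed still included that sample. Cox10-deficient replicates 1 and 2 kept an offset from it (Cdh5 at -0.17 and -0.27 from the group mean). These r are therefore not free of that sample.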

How the data were processed

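RNA-seq of 18 whole-lung samples was taken as deposited. Per the file headers and values, the authors deposited a normalised signal per gene and sample, in which read counts were divided by size factors. All values (100% per sample, tolerance 0.01) were whole multiples of 1 step per sample, which lay between 0.978 and 1.02. The submitters' processing notes name Trim Galore, HISAT2, featureCounts, DESeq2 and the build mm10, and their versions and the annotation are not given in the sources used here. Reads came from a BGISEQ-500 per the study's methods and from an Illumina protocol per the labels. The authors also deposited log2 fold changes and p-values, which were not used. From every table, 4 rows with duplicated symbols were left out.

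Groups were taken from the sample titles. Genes with a value of at least 10 in at least 3 of 6 samples were tested on log2(value + 1) with limma 3.58.1 (R 4.3.3; lmFit, eBayes with trend), 2-sided, with Benjamini-Hochberg adjustment over all genes tested. Fold changes on this scale understate those of low genes. Differences between lines were contrasts in a fit of all 18 samples. Code was tested on simulated data. Exon lengths were the union of GENCODE M21 exons.

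The named genes were all 10 genes, all listed VEGF and angiopoietin genes, and for each other list up to 3 called genes with the largest change per line. Gja4, S1pr1 and Ccl21a were named after their values were seen. The genes and lists were chosen with earlier results of these data known.

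In the Rptor line the deviations of same-numbered control and deficient samples correlated at 0.22, 0.33 and 0.26 across genes. Differently numbered samples were not compared, and the labels do not say that same-numbered samples share a litter. Whether the numbers pair the samples is therefore not known. The main fits used no block, and the replicate number was tried as a block. The fit with this block is given where it changes a call.

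Depth was 27725270 to 29608845 normalised reads per sample. Counting error was not estimated separately and is part of the spread between samples. Alternatives were a pseudocount of 0.1, no filter, a mean of at least 50, library totals, the trimmed mean of M-values, the block, all 18 samples in a single fit and leaving out each sample. The cardiomyocyte covariate, the 12-sample fits, the slopes and ligand differences without Cox10-deficient replicate 3 and the ligand values without Rptor-deficient replicate 1 were added after seeing the data.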

Additional observations from a re-analysis of the deposited data

Results flagged for a closer look

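The Rptor effect on Flt4 exceeded the Tfam effect by 0.36 on the log2 scale (SE 0.10, limma adjusted p = 0.0307), which was noted because the difference between lines was itself tested. This was 1 of the 10 genes, where 11.2% of all genes differed, and it passed the threshold in 10 of 18 fits that each left out 1 sample. Flt4 was higher in 3 of 3 Rptor-deficient lungs than in any control of that line, and the groups overlapped in the Tfam line. Pecam1, Cdh5, Kdr, Tek, Tie1 and Prox1 were separate in the Rptor line as well. Of these, Cdh5, Kdr and Prox1 also overlapped in the Tfam line. Without Cox10-deficient replicate 3, Flt4 was 1 of 6 genes whose Rptor and Tfam effects differed, where 16.5% of all genes did. No group had enough samples for a test of single samples far from the others.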

How the results depend on the processing

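Leaving out each sample in turn gave 6 to 8 called genes in the Rptor line, and 0 to 0 in the Tfam and Cox10 lines. It gave 0 to 3 relative to the reference genes in the Rptor line, 0 to 0 in the Tfam line and 0 to 1 in the Cox10 line. For the Rptor minus Tfam effects it gave 0 to 6, for the Rptor minus Cox10 effects 0 to 5, and for the Tfam minus Cox10 effects 0 to 0. The 12 samples of the Rptor and Tfam lines alone gave 3. With the replicate block, 0 genes were called relative to the reference in the Rptor line and 1 gene (Flt4) differed between the Rptor and Cox10 effects. In the Tfam and Cox10 lines it is likewise not known whether the replicate numbers pair the samples. The correlations were -0.31, -0.21 and 0.15 in the Tfam line and 0.45, 0.2 and 0.049 in the Cox10 line. The block left 0 genes called in both. Flt1 in the Tfam line was -0.000259 with the cardiomyocyte covariate, and the cause was not tested. Under the settings that kept all samples of a line, 54 counts of called genes were within 1.5 times the reported count (0 staying 0 included), and the 3 exceptions are those given above. The planned count tests on reads recovered from the scaled values were not run, so their calls are not known. With 3 samples a group, a log2 fold change of 0.24 (Lyve1) missed the threshold in the Tfam line, and for Prox1, with counts of 91.5 to 276, the spread between samples set a wider limit. The log2 values below, none of them called with all samples, changed sign when 1 sample was left out, and are given as their lowest to highest value. For the Rptor line they were Flt1 -0.037 to 0.19. For the Rptor line relative to the reference they were Lyve1 -0.11 to 0.0737 and Gja5 -0.31 to 0.0343. For the Tfam line they were Cdh5 -0.0212 to 0.0867, Flt1 -0.0605 to 0.0413 and Flt4 -0.0325 to 0.0843. For the Tfam line relative to the reference they were Tie1 -0.00252 to 0.0677, Pecam1 -0.00326 to 0.00696, Tek -0.00325 to 0.0585 and Gja5 -0.0421 to 0.22. For the Cox10 line relative to the reference they were Tek -0.0453 to 0.00546 and Kdr -0.0845 to 0.0117. For the Rptor minus Tfam effects they were Gja5 -0.19 to 0.14, Lyve1 -0.0504 to 0.11 and Flt1 -0.0411 to 0.19. For the Rptor minus Cox10 effects they were Flt1 -0.20 to 0.0748, Lyve1 -0.17 to 0.15, Pecam1 -0.0538 to 0.32, Cdh5 -0.0226 to 0.33, Tek -0.00759 to 0.28 and Tie1 -0.00522 to 0.38. For the Tfam minus Cox10 effects they were Prox1 -0.18 to 0.40, Pecam1 -0.28 to 0.0882, Tek -0.22 to 0.0632, Tie1 -0.36 to 0.0249 and Lyve1 -0.19 to 0.13.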
